A study of Mus musculus with 3 samples.

Results

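The unfolded protein response and protein folding machinery of the endoplasmic reticulum (ER) was followed through 30 genes in the cells of the mouse uterus at pregnancy day 7.5. The genes were taken by symbol from the 32247 gene symbols of the deposited matrix, and all 30 were present. They comprise 5 chaperones and lectins, 4 disulfide isomerases, 3 J-domain co-chaperones, 3 small lumenal stress proteins, 3 membrane sensors, 5 transcription factors and feedback regulators, and 7 genes of ER-associated degradation. The series holds 3 samples of whole pregnant mouse uterus. The 1 library analysed here carries no stated genotype or treatment beyond mating. Its females were housed with littermates to 8 weeks of age, mated with stud males and dissected at day 7.5, and the tissue was dissociated with trypsin for droplet capture. The labels do not say how many animals or implantation sites were pooled. The other 2 samples, a Prl8a2icre/+ Sun1-GFPLsL/+ uterus and a Sun1-GFPLsL/+ uterus, are not analysed here.

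The ER folds and modifies proteins that are to be secreted or placed in membranes. Hspa5 (also called BiP or GRP78) binds nascent chains, the calnexin and calreticulin lectins hold glycoproteins, and the disulfide isomerases form and rearrange their bonds. When unfolded protein builds up, the sensors Ern1 (IRE1α), Eif2ak3 (PERK) and Atf6 signal to the nucleus. Ern1 splices the messenger RNA of Xbp1, Eif2ak3 slows translation and favours that of Atf4, and Atf6 is cut to release a transcription factor. The programme that follows includes chaperones, degradation factors, the stress regulator Ddit3 (CHOP) and Ppp1r15a (GADD34), which restores translation. Secretory cells such as gland epithelium, granulated lymphocytes and decidual stroma place a high load on this system. The counts come from the 3′ ends of transcripts, so Xbp1 splicing and sensor activation are not measured by them.

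After filtering, 1812 cells remained, with 14622717 UMIs (unique molecular identifiers, which mark single captured transcripts) and a median of 4509.5 UMIs per cell. Clustering without the 30 genes and without 168 related genes gave 20 clusters. From marker genes, 18 clusters fell into 10 classes, and 68 cells in 2 shallow clusters stayed unnamed. The classes are written below without the suffix "like", though each name rests on markers alone. Levels are given as CPM, the UMIs of a gene per 1000000 UMIs of the cell group, and are compared only between cell groups, not between genes. The naming of the stroma was the weakest. Summed decidual markers reached 6343 and 3162 CPM in the decidual clusters 1 and 17 and 2381 and 2860 CPM in the undifferentiated clusters 6 and 7. The summed undifferentiated markers, however, were 5087 and 5516 CPM in the first pair and 3651 and 5881 CPM in the second. Most of the decidual sum in clusters 6 and 7 was Cdh11, at 1901 and 2105 CPM, against 243 and 930 CPM in clusters 1 and 17. Htra1 was also higher in clusters 6 and 7. Tdo2 was at 2889 and 1390 CPM in clusters 1 and 17 and 34.5 and 18.3 CPM in clusters 6 and 7. Dio3, Wnt4, Gja1 and Hand2 were likewise higher in both decidual clusters, and Bmp2 only in cluster 1. The small B cell cluster also led with Siglech (1068 CPM) and Ccr9 (731 CPM), genes of plasmacytoid dendritic cells, and of 6 plasma cell markers 3, Jchain among them, were at 0 in it, while Mzb1 was at 124 CPM (11 UMIs), above every other cluster. Levels given below for B cells are those of this whole cluster, in which cells with B cell and with plasmacytoid dendritic genes were not told apart. With 1 library there are no replicates, and no difference given here was tested against their spread. Every interval is an exact 95% interval that covers counting error only. A gene was called higher or lower between 2 groups if it had at least 50 UMIs over both, differed at least 2-fold, and had an interval of the ratio that excludes 1.

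The promoters were read first, because known motifs link many of these genes. RefSeq windows on GRCm38.p6, from 250 bases before to 50 bases after the annotated start, were found for 26 of the 30 genes (not for Atf6, Manf, Hyou1 and Derl1). The ER stress response element (ERSE, which is CCAAT, 9 bases of any kind and CCACG, searched like the others on both strands) was present in 9 of 26 windows (34.6%), against 39 of 32851 windows of all genes (0.119%). The genes were Hspa5, Hsp90b1 (with 2 matches), Calr, Canx, Pdia6, Dnajc3, Creld2, Syvn1 and Derl3. The second form, ERSE-II (ATTGG, 1 base of any kind and CCACG), was in the windows of Herpud1 and Dnajb11 (7.69%, against 0.0365% of all windows). These motifs were known beforehand to link many of these genes, so the shares describe the gene list and test nothing. The unfolded protein response element core (TGACGTGG) was in none of the 26 and in 0.676% of all windows. The amino acid response element (CARE, TGATGNAAN) was in 2 of 26, Herpud1 and Trib3, and in 3.95% of all windows. The ERSE-II and CARE matches of Herpud1 did not overlap. The 8 stretches shown are those of the genes on which the cell group comparisons below turn, written 5′ to 3′ on the strand of the gene, with the fixed letters of the motif or of its reverse complement in capitals.
Hspa5, chr2:34772020-34772048, plus strand: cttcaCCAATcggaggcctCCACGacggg
Hsp90b1, chr10:86705521-86705563, minus strand: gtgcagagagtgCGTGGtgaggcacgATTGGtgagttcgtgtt
Calr, chr8:84847063-84847105, minus strand: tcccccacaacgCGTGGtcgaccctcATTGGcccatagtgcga
Pdia6, chr12:17266479-17266521, plus strand: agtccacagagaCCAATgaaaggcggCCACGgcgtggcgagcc
Dnajc3, chr14:118937815-118937857, plus strand: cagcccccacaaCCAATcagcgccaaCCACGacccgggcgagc
Creld2, chr15:88819508-88819550, plus strand: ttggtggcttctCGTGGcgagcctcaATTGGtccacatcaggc
Derl3, chr10:75893230-75893272, plus strand: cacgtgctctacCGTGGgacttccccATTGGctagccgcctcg
Herpud1, chr8:94386365-94386399, plus strand: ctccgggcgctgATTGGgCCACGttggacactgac
All 8 lie upstream of the RefSeq start, and the Hspa5 motif lies 65 to 47 bases before it. Its stretch falls inside the longer GENCODE M21 gene model of Hspa5 (chr2:34771970-34777547) and is therefore shown with shorter flanks. The ERSE-II match of Dnajb11 lies 8 to 18 bases after the start and is not shown. A match describes the letters in the window and not a bound site.

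Over all cells the 30 genes held 139873 UMIs, or 0.957% of the library. Epithelium gave them the largest share, 12281 CPM (12185 to 12377), followed by NK and innate lymphoid cells at 10231 CPM (10130 to 10334) and mononuclear phagocytes at 9884 CPM (9706 to 10064). Undifferentiated stroma had the smallest, 4751 CPM (4642 to 4861), and decidual stroma stood at 6239 CPM (6111 to 6368). Pericytes were at 9049 CPM, B cells at 7401 CPM, endothelium at 6180 CPM, T cells at 5785 CPM and mesothelium at 5644 CPM. Class sums weigh the deepest clusters most. Cluster 11 held 3152423 of 5102390 epithelial UMIs and cluster 8 held 3131636 of 3774181 NK UMIs. Epithelial clusters 0, 10, 11 and 12 were at 14623, 12332, 12626 and 8001 CPM, and NK clusters 8 and 2 at 10819 and 7369 CPM. The class order thus did not hold for every cluster. The order of the summed genes hid different orders of single genes. Epithelium was the highest class for 10 of the 30 genes, NK cells for 8, B cells for 5, phagocytes for 3, pericytes for 2, and endothelium and T cells for 1 each. In 6 of the 10 epithelial genes and 4 of the 8 NK genes the interval lay apart from that of the second class. Neither stromal class was highest for any gene, nor was mesothelium. T cells were the lowest class for 8 genes, B cells for 5 and endothelium for 4. Undifferentiated stroma, decidual stroma and mesothelium were lowest for 3 genes each, pericytes for 2, and NK cells and phagocytes for 1 each. The heat map of the 30 genes over clusters shows the decidual and undifferentiated clusters mostly below the library level, and Derl3, Creld2 and Dnajc3 far above it in epithelial cluster 0.

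**Figure D1:**
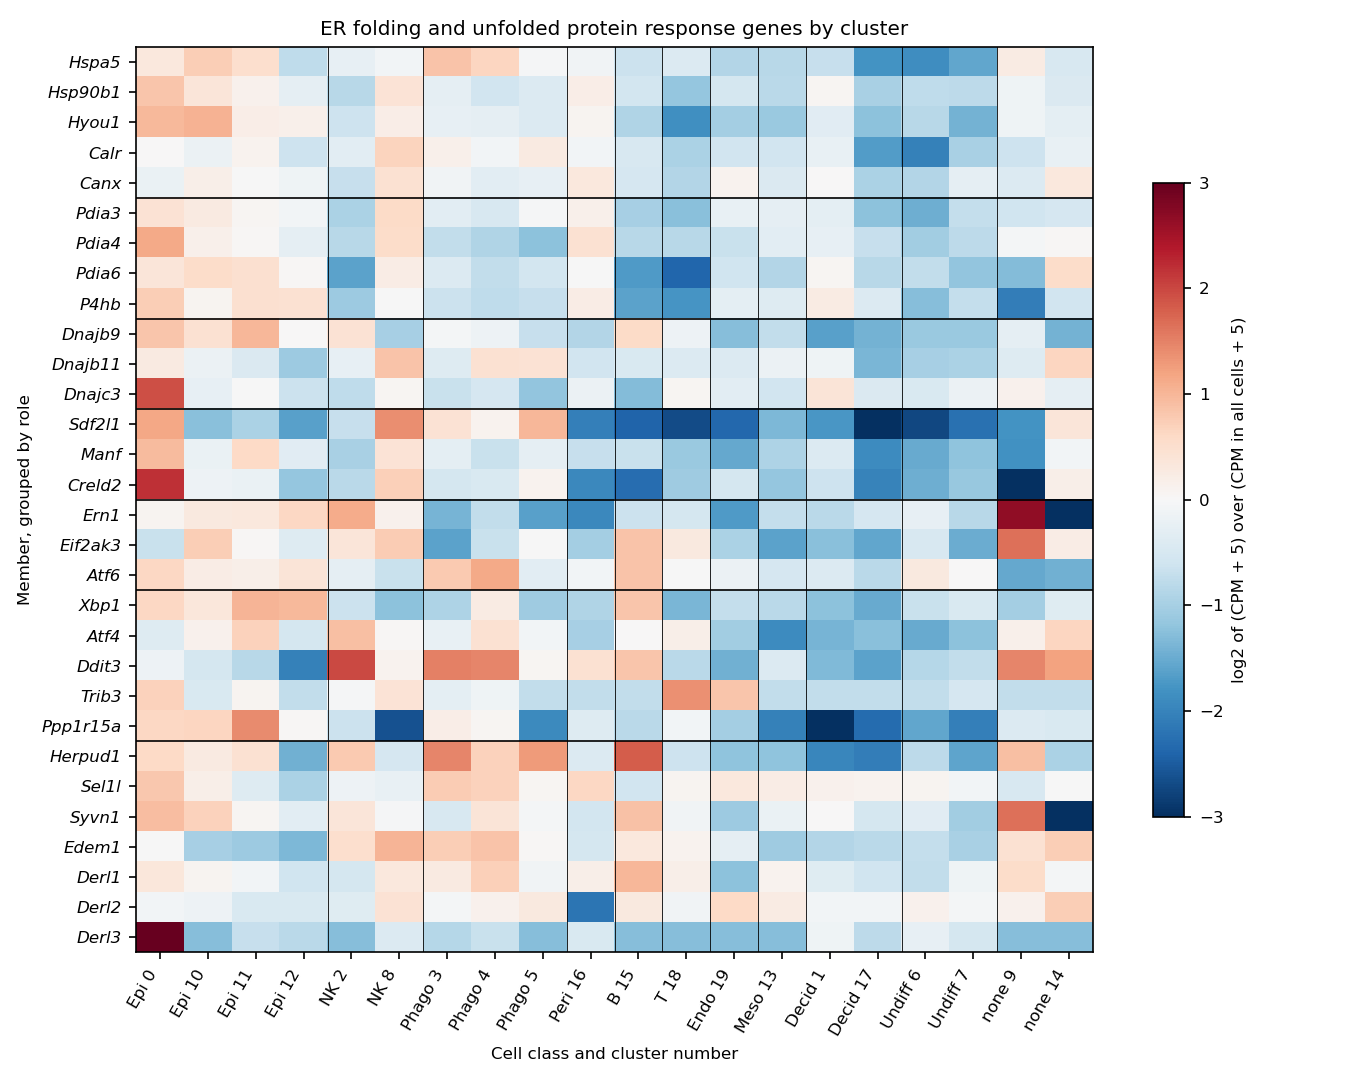
Level of each of the 30 genes (rows, grouped by role) in each of the 20 clusters (columns, labelled with an abbreviated class and the cluster number, "none" for the unnamed clusters), as log2 of CPM + 5 over the library CPM + 5. Red is above and blue below the library level; Derl3, Creld2 and Dnajc3 stand highest in epithelial cluster 0, and Sdf2l1 spans from dark blue in stroma and T cells to red in NK cluster 8 and epithelial cluster 0.

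Each class was set against all other cells, and 29 of the 30 genes could be called, since Trib3, a pseudokinase induced by Atf4 and Ddit3, had only 48 UMIs. In epithelium 4 of 29 were higher, against 11.4% of all 12179 genes tested, and 2 were lower, against 27.8%. In NK cells 5 were higher, against 11.6%, and 3 lower, against 34.5%. Phagocytes had 2 higher, against 11%, and 3 lower, against 30.7%, and B cells 2 higher, against 8.68%, and 6 lower, against 6.68%. The remaining 6 classes had none higher. Their lower counts were 14 in undifferentiated stroma (background 24% lower and 19.8% higher), 13 in endothelium (15.1% and 13.8%), 10 in decidual stroma (24.7% and 9.52%), 8 in mesothelium (16.5% and 14.8%), 8 in T cells (8.16% and 8.14%) and 6 in pericytes (11.7% and 10.9%). The share of genes lower was above the background in each of these 6 classes, and the shares higher in epithelium and NK cells were near or slightly above it. Sdf2l1 was among the lower genes in all 6, and Eif2ak3 in 5, with T cells the exception.

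Among the chaperones and lectins, Hspa5 was highest in phagocytes at 3121 CPM (3021 to 3223), then in epithelium at 2737 CPM (2692 to 2783), with intervals apart. Its median over the 10 classes was 1391 CPM, and its lowest level, in undifferentiated stroma at 644 CPM (604 to 686), was 4.85-fold below the highest. Hspa5 met the rule for lower in both stromal classes and for higher in none. Hsp90b1 (GRP94), a chaperone of integrins, Toll-like receptors and other clients, was nearly level in the 3 highest classes, NK cells at 2051 CPM, epithelium at 2001 CPM and pericytes at 1991 CPM, whose intervals overlapped, and fell to 766 CPM in T cells. Hyou1, a nucleotide exchange factor for Hspa5, was highest in epithelium at 183 CPM (172 to 196) and lowest in T cells at 33.0 CPM. Calr (calreticulin) was highest in NK cells at 941 CPM (910 to 972) and lowest in undifferentiated stroma at 283 CPM. Canx (calnexin), its membrane-bound relative, varied least of the 5, from 313 CPM in T cells to 727 CPM in pericytes. None of the 5 was called higher in any class.

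The disulfide isomerases stood highest in epithelium, NK cells or pericytes. Pdia6 (609 CPM, 588 to 631) and P4hb (474 CPM, 455 to 493), which also serves as the β subunit of prolyl 4-hydroxylase in collagen synthesis, were highest in epithelium, though the interval of P4hb overlapped that of pericytes (412 CPM). Pdia3 (712 CPM, 686 to 740), the partner of calnexin and calreticulin, was highest in NK cells, with an interval overlapping that of pericytes (601 CPM), and Pdia4 was at 310 CPM in pericytes and 296 CPM in NK cells, with overlapping intervals. T cells were lowest for Pdia3 (223 CPM), Pdia6 (82.4 CPM) and P4hb (98.9 CPM), and phagocytes for Pdia4 (120 CPM). None of the 4 was called higher in a class.

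The 3 J-domain co-chaperones, which direct Hspa5 to its substrates, had 3 different patterns. Dnajb9 (ERdj4), an induced co-chaperone that restrains Ern1, was 3.12-fold higher (2.83 to 3.45) in epithelium than in other cells, at 216 against 69.0 CPM, and its interval overlapped that of B cells at 180 CPM. Dnajb11 (ERdj3), a co-chaperone that is also secreted, was 2.21-fold higher (1.96 to 2.48) in NK cells, at 133 against 60.2 CPM. Dnajc3 (P58IPK), an inhibitor of eIF2α kinases, was at 304 CPM in epithelium and 287 CPM in decidual stroma, which overlapped, and its level differed among the epithelial clusters, as described further on.

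The small lumenal proteins stood highest in NK cells and epithelium. Sdf2l1, a partner of Dnajb11 in the Hspa5 cycle, was 4.46-fold higher (3.96 to 5.02) in NK cells than elsewhere, at 189 against 42.5 CPM, followed by phagocytes at 114 CPM (95.9 to 135) and epithelium at 49.6 CPM (43.7 to 56.1). In the other 7 classes it lay between 8.24 CPM, which is 1 UMI, in T cells and 28.6 CPM in mesothelium. Creld2, a secreted ER stress protein with isomerase activity, had the same first classes in another order, NK cells at 110 CPM (99.6 to 121), epithelium at 88.6 CPM (80.6 to 97.1) and phagocytes at 57.1 CPM. Manf, an ER resident that can be secreted and protects stressed cells, was at 398 CPM (381 to 416) in epithelium, 348 CPM (329 to 367) in NK cells and 96.8 CPM in endothelium, the lowest class.

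The sensors were counted thinly, with 1075 UMIs for Ern1, 969 for Atf6 and 780 for Eif2ak3 over all cells. Ern1 was at 95.4 CPM (85.8 to 106) in NK cells and 93.9 CPM (85.7 to 103) in epithelium, with overlapping intervals, and was lower than elsewhere in phagocytes, at 29.4 against 77.4 CPM. Eif2ak3 was 2.19-fold higher (1.89 to 2.53) in NK cells, at 89.3 against 40.8 CPM, and also lower in phagocytes, at 27.7 against 55.6 CPM. Atf6 had another order, with 115 CPM (96.6 to 136) in phagocytes and 42.4 CPM (36.1 to 49.5) in NK cells, its lowest class. B cells had the highest point values for Eif2ak3 (101 CPM) and Atf6 (124 CPM), from 9 and 11 UMIs.

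Of the transcription factors and feedback genes, Xbp1 was 3.36-fold higher (3.19 to 3.54) in epithelium, at 755 against 225 CPM, with B cells at 731 CPM (564 to 932) beside it. It was 2.60-fold lower (2.40 to 2.81) in NK cells, at 188 against 487 CPM. Atf4 was highest in epithelium at 457 CPM (438 to 476) and NK cells at 396 CPM (376 to 416) and lowest in mesothelium at 87.9 CPM. Ddit3 was 2.97-fold higher (2.51 to 3.49) in phagocytes, at 157 against 52.9 CPM, and 2.04-fold higher in NK cells, and was 2.25-fold lower in epithelium, at 33.9 against 76.2 CPM. All Ddit3 UMIs belonged to 1 of the 2 identifiers that carry the symbol. Ppp1r15a, the regulatory subunit that returns eIF2α to its unphosphorylated form, was 6.20-fold higher (5.87 to 6.55) in epithelium, at 1096 against 177 CPM, and 5.38-fold lower in NK cells, at 117 against 630 CPM. Within NK cells both Ddit3 and Ppp1r15a differed between the clusters, with 258 and 314 CPM in cluster 2 and 66.1 and 76.6 CPM in cluster 8. Trib3 had at most 21 UMIs in any class.

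The degradation genes carry misfolded protein from the ER to the proteasome. Herpud1, which organises the membrane ligase complex, was 3.68-fold higher (2.76 to 4.82) in B cells, at 607 against 165 CPM, and 2.68-fold higher (2.42 to 2.96) in phagocytes, at 395 against 147 CPM, and its lowest class was decidual stroma at 38.3 CPM (29.0 to 49.8). Edem1, a mannose-trimming factor that marks glycoproteins for disposal, was 2.96-fold higher (2.67 to 3.28) in NK cells, at 194 against 65.7 CPM, and 2.58-fold lower in epithelium, at 48.8 against 126 CPM. The ligase Syvn1 (HRD1) and its adaptor Sel1l did not share an order. Syvn1 ranged from 31.0 CPM in endothelium to 135 CPM in B cells and Sel1l from 56.2 CPM in B cells to 134 CPM in phagocytes. The derlins, membrane proteins of the export channel, also differed among themselves. Derl1 was 2.07-fold higher (1.07 to 3.64) in B cells, from 12 UMIs, Derl2 ranged from 3.93 CPM (1 UMI) in pericytes to 56.1 CPM in endothelium, and Derl3 was 4.89-fold higher (3.15 to 7.78) in epithelium, at 14.9 against 3.05 CPM, with cluster 0 at 141 CPM and the other 3 epithelial clusters at or below 2.54 CPM.

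The epithelium was divided into the cluster high in Prss28 and Prss29, secreted proteases of uterine glands, and the other 3 epithelial clusters. Cluster 0 (54 cells) held these 2 proteases at 110392 CPM and the gland transcription factor Foxa2 at 111 CPM, while clusters 10, 11 and 12 (318 cells) together held the proteases at 43.7 CPM. The 30 genes summed to 14623 CPM (14281 to 14970) in the gland cluster and 12040 CPM (11940 to 12140) in the others. Of 29 genes tested 7 were higher in the gland cluster (24.1%), against 7.67% of all 8258 genes tested, and 0 were lower, against 14.1%. Derl3, among the 7, met the UMI minimum only through its UMIs in the gland cluster. The median log2 ratio of the 29 was 0.43, and that of all genes was -0.16.

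Derl3 had the widest gap, with 141 CPM in the gland cluster and 0, 2.54 and 1.90 CPM in clusters 10, 11 and 12, a ratio of 72.4 (35.9 to 165) from 67 and 9 UMIs. Its UMIs came from 14 of the 54 gland cells, and 1 cell held 34.3% of them. In cells thinned to 2000 UMIs, Derl3 was found in 7 of 44 gland cells (15.9%, exact binomial interval 6.64 to 30.1) and in no cell of clusters 10, 11 and 12, whose intervals reached up to 3.21%, 3.13% and 6.06%. Outside epithelium no cluster exceeded 6.09 CPM, the level of decidual cluster 1. Creld2 was 5.86-fold higher (4.82 to 7.11), with 357 CPM in the gland cluster against 66.4, 64.4 and 30.4 CPM. Sdf2l1 was 5.18-fold higher (3.96 to 6.75), with 185 CPM against 30.6, 39.3 and 22.8 CPM, so that the gland cluster came close to the 218 CPM of NK cluster 8. Dnajc3 was 4.22-fold higher (3.78 to 4.70), with 985 CPM against 215, 251 and 162 CPM, and the next highest of all 20 clusters, decidual cluster 1, was at 336 CPM.

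The other called genes were Edem1 (98.7 against 43.7 CPM, 2.26-fold), Sel1l (153 against 68.1 CPM, 2.25-fold) and Pdia4 (500 against 231 CPM, 2.17-fold). The 7 called genes were 1 of 4 isomerases, 1 of 3 co-chaperones, 2 of 3 small lumenal proteins and 3 of 7 degradation genes. Pdia6, at 580 CPM, lay among the other clusters (458 to 662 CPM), as did Dnajb9, at 216 CPM (122 to 246 CPM). Hspa5 was at 2473 CPM in the gland cluster and 2765 CPM in the others, Xbp1 at 628 and 768 CPM, Atf4 at 258 and 477 CPM, Ppp1r15a at 773 and 1129 CPM, and Eif2ak3 at 31.5 and 61.0 CPM, and none was called. Ddit3 (54.6 against 31.8 CPM) and Atf6 (105 against 77.8 CPM) were not called either, and their levels were above each of the other 3 clusters. Hsp90b1, at 3091 against 1889 CPM (1.64-fold, 1.55 to 1.73), was also short of the rule. The gland cluster lay above each of the other 3 clusters for 18 of the 29 genes (background 24.2%) and below each for Canx, Ern1 and Eif2ak3 (background 38.4%). The plot of 10 genes over the epithelial clusters shows this contrast.

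**Figure D2:**
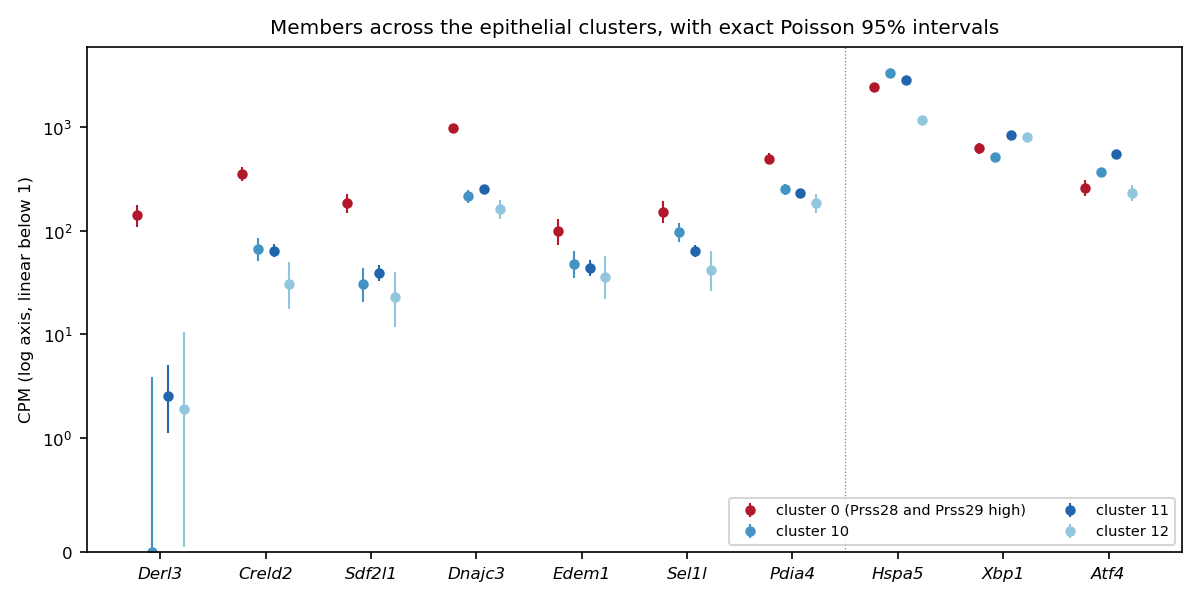
CPM (log axis, linear below 1) of 10 genes in the 4 epithelial clusters, with exact Poisson 95% intervals. For the 7 genes left of the dotted line the gland cluster 0 (dark red) lies above the other 3 clusters, from 141 against at most 2.54 CPM for Derl3 to 500 against at most 252 CPM for Pdia4, and for Hspa5, Xbp1 and Atf4 it lies among them.

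The 2 sides differed in other ways. Prss28, Prss29 and Spink1 stood at 32506, 77885 and 43467 CPM in the gland cluster, and Spink1 at no more than 28.5 CPM in clusters 10, 11 and 12. Such genes fill part of the total to which all genes of the gland cluster are scaled, which lowers the CPM of the others there. The gland cells had a median of 3877 UMIs and 7.39% mitochondrial UMIs, against 7280 UMIs and 5.21% in the other epithelium, and cluster 10 reached 15.7%. Immediate early genes summed to 9677 and 10967 CPM, and stromal markers to 67.2 CPM in the gland cluster with 2 of 10 at 0, against 84.1 to 118 CPM in the other 3 clusters. The 5 deepest gland cells held 30.6% of the cluster's UMIs. Without them, an alternative chosen after seeing the data, 6 genes were higher: Creld2 (5.71-fold), Sdf2l1 (4.16-fold), Dnajc3 (3.99-fold), Edem1 (2.36-fold), Sel1l (2.05-fold) and now Ddit3 (2.10-fold), while Pdia4 was at 1.82-fold and Derl3, with 52.9-fold, fell under the UMI minimum. Pdia3, Dnajb11, Herpud1, Manf and Syvn1 lay above each of the other 3 clusters with the 5 deepest cells, but not without them. Thinning every cell to 2000 UMIs left 3 genes higher.

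Counts of related genes in the gland cluster are to be read against 7.67% of all genes higher and 14.1% lower. Of other ER folding enzymes 3 of 29 were higher, led by Dnajc10 (231 against 51.0 CPM), an ER disulfide reductase with a J domain, and Qsox1 (168 against 40.4 CPM), a sulfhydryl oxidase. Pdia5 was 2.15-fold lower. Of translocation, signal peptidase and glycosylation genes 1 of 25 was higher, the signal peptidase subunit Sec11c (525 against 138 CPM), and 1 lower, Ddost (130 against 268 CPM), of the oligosaccharyltransferase. Among other degradation genes the lectin Os9 was higher (2.01-fold) and Nploc4 lower (3.96-fold), of 21, and among 20 export genes Tmed3 was higher (416 against 208 CPM) and Sec24b lower (2.94-fold). Of 13 sensor partners Ddrgk1 was higher (2.40-fold). Of 21 Atf4 and integrated stress response targets 1 was higher, the tryptophanyl-tRNA synthetase Wars (216 against 19.0 CPM), and 6 were lower, led by Ddit4 (2.10 against 24.4 CPM) and Sesn2 (4.20 against 23.1 CPM). Of 12 heat shock genes Dnajb1 (3.88-fold) and Bag3 (2.18-fold) were lower and none higher.

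NK and innate lymphoid cells were divided by Gzmd, Gzme, Gzmf and Gzmg, granzymes of uterine NK cells. Cluster 8 (152 cells) held them at 9906 CPM and cluster 2 (128 cells) at 66.9 CPM. The 30 genes summed to 10819 CPM (10704 to 10934) in the granzyme-high and 7369 CPM (7161 to 7582) in the granzyme-low cluster. Of 28 tested genes 10 were higher (35.7%), against 16.1% of all 6963 genes, and 5 lower (17.9%), against 12.9%. The 10 were all chaperones, isomerases, co-chaperones or small lumenal proteins, and the 5 lower were 1 sensor, 2 regulators, 1 co-chaperone and 1 degradation gene.

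Sdf2l1 was highest by ratio, at 218 against 48.2 CPM (4.53-fold, 3.16 to 6.72). It was followed by Pdia6 at 520 against 143 CPM (3.63-fold), Creld2 at 124 against 40.5 CPM (3.07-fold) and Pdia3 at 801 against 279 CPM (2.88-fold). Pdia4 (331 against 125 CPM) and Manf (389 against 146 CPM) were both 2.66-fold higher. All 4 isomerases and all 3 small lumenal proteins were therefore higher in the granzyme-high cluster. Hsp90b1 was at 2274 against 963 CPM (2.36-fold, 2.17 to 2.57), Dnajb11 at 147 against 65.4 CPM (2.24-fold), Canx at 790 against 355 CPM (2.23-fold) and P4hb at 349 against 162 CPM (2.15-fold). Calr, at 1028 against 517 CPM (1.99-fold, 1.78 to 2.23), was just short of the rule. Hspa5 was at 1888 and 1693 CPM, a ratio of 1.11 (1.04 to 1.19), so the most studied gene of the response was nearly level where its co-chaperone Dnajb11 and its partner Sdf2l1 were not.

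In the other direction, Ppp1r15a was 4.10-fold lower (3.38 to 4.97) in the granzyme-high cluster, at 76.6 against 314 CPM, and Ddit3 3.91-fold lower, at 66.1 against 258 CPM. Dnajb9 was 2.85-fold lower, at 57.8 against 165 CPM, Herpud1 2.50-fold lower, at 118 against 294 CPM, and Ern1 2.03-fold lower, at 81.1 against 165 CPM. Atf4 was at 346 against 635 CPM and Xbp1 at 172 against 261 CPM, short of the rule. The remaining degradation genes were not called and pointed both ways, with Derl1, Derl2 and Edem1 at ratios of 1.90, 1.89 and 1.45 and Sel1l and Syvn1 at 0.955 and 0.745. Derl3 had 13 and 0 UMIs and Trib3 19 and 2.

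**Figure D3:**
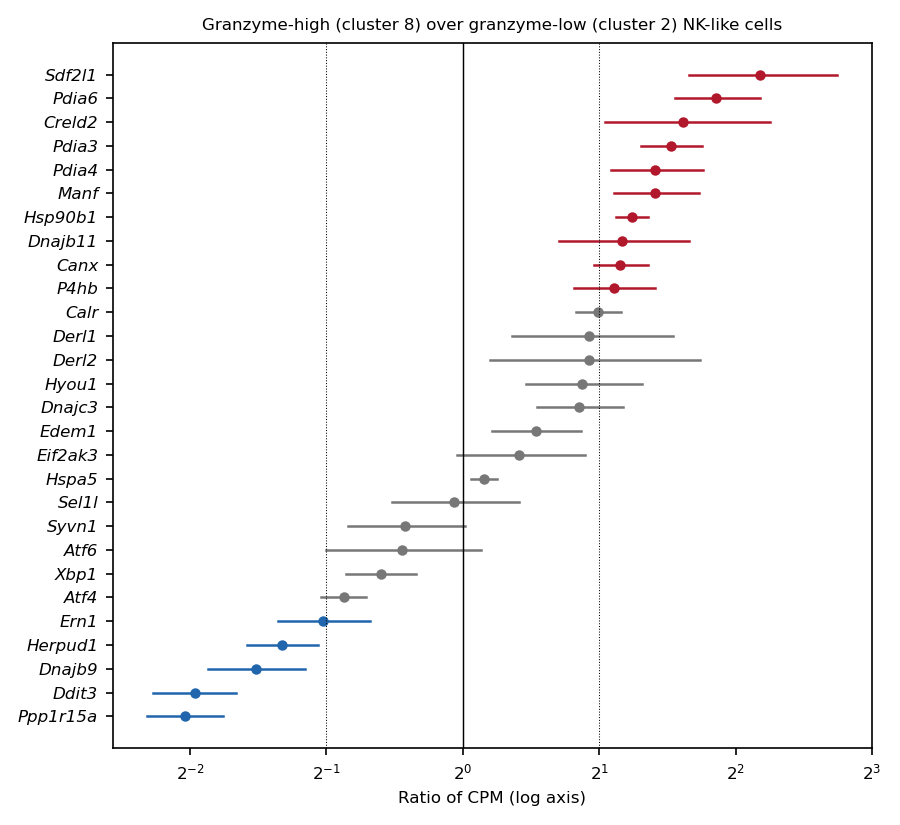
Ratio of CPM in granzyme-high cluster 8 over granzyme-low cluster 2 for the 28 genes tested, on a log axis, with exact 95% intervals; dotted lines mark 2-fold, red is called higher, blue called lower and grey not called. The chaperones, isomerases and small lumenal proteins lie at the top and Ddit3 and Ppp1r15a at the bottom, with Hspa5 near 1.

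Several other quantities moved with this division. The granzyme-high cells had a median of 17372 UMIs against 4871.5, immediate early genes summed to 1205 against 6930 CPM and were lower in 11 of 11 tested, and heat shock genes were lower in 6 of 12, led by Hspa1b (5.94-fold) and Hspa1a (4.51-fold). T cell markers summed to 604 CPM in the granzyme-high cluster, with 3 of 9 at 0, and 900 CPM in the granzyme-low cluster, with 1 of 9 at 0. The part of these in the differences was not tested. Without the filters on genes and mitochondrial share 3 of the 30 genes were higher and 5 lower, with Hsp90b1 at 1.004-fold, Canx at 1.17-fold, Pdia6 at 1.25-fold and Pdia4 at 1.46-fold, and the class then held 451 cells in place of 280.

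Among related genes the counts are to be read against 16.1% of all genes higher and 12.9% lower in the granzyme-high cluster. Of the translocation, signal peptidase and glycosylation genes 16 of 25 were higher and 0 lower, led by the translocon-associated Ssr2 (140 against 26.5 CPM) and Rpn1 of the oligosaccharyltransferase (401 against 99.6 CPM). Other ER folding enzymes had 10 of 26 higher and 0 lower, with Txndc12 (4.10-fold) and Pdia5 (3.76-fold) first. Of 19 export genes 5 were higher, led by Tmed3 and Kdelr2 (both 2.64-fold), a cargo receptor and a retrieval receptor, and Sec24b was 2.03-fold lower. Other degradation genes had 2 of 21 higher, Edem2 (3.39-fold) and the ATPase Vcp (2.10-fold), and Ube2j1 was 2.64-fold lower. Of 10 sensor partners Ufm1 was higher (3.27-fold) and Map3k5 lower (2.02-fold). The Atf4 targets divided, with 8 of 19 higher, led by the serine synthesis enzymes Psat1 (86.5 against 9.34 CPM) and Phgdh (145 against 20.2 CPM), and 3 lower, led by the transcription factors Atf3 (10.2-fold) and Cebpb (9.41-fold).

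Decidual stroma, the transformed stroma that surrounds the implanted conceptus, was compared with undifferentiated stroma, and none of the 27 genes tested met the rule in either direction, while 8.46% of all 7474 genes were higher and 18.2% lower. The largest ratios were those of P4hb (365 against 195 CPM, 1.87-fold, 1.62 to 2.17), Pdia6 (394 against 212 CPM, 1.86-fold), Syvn1 (1.69-fold), Hyou1 (1.63-fold) and Hspa5 (1014 against 644 CPM, 1.57-fold, 1.45 to 1.71). The smallest were Ppp1r15a (66.4 against 128 CPM, a ratio of 0.520) and Xbp1 (162 against 286 CPM, 0.568). The median log2 ratio was 0.18 for these genes and -0.30 for all genes. For Pdia4, P4hb and Sel1l each decidual cluster exceeded each undifferentiated one (background 10.8%), and each was below for Xbp1, Atf6, Ddit3, Dnajb9, Herpud1, Derl2 and Ppp1r15a (background 40.5%). Cluster 17 was the doubtful member of the decidual class. With cluster 1 alone against undifferentiated stroma, a choice made after seeing the data, 2 of 27 genes were higher, Pdia6 (464 against 212 CPM, 2.19-fold, 1.90 to 2.54) and P4hb (415 against 195 CPM, 2.13-fold, 1.83 to 2.49), while 10.9% of all 6967 genes were. Ppp1r15a was lower, at 51.8 against 128 CPM, while 22.4% of all genes were. Immediate early genes summed to 790 CPM in decidual and 2105 CPM in undifferentiated stroma, and the median mitochondrial share was 11.7% and 4.28%, whose part was not tested.

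Within the decidual class, cluster 1 (77 cells) held Bmp2 and Wnt4, signals of decidualisation, at 631 CPM, and cluster 17 (75 cells) at 29.4 CPM. In cluster 17 only 5 of the 8 decidual markers were detected in enough cells. Its 10 leading genes, headed by Rbp4, Cyp26b1 and Sfrp4, held 0 decidual markers and 1 marker of another class, and its undifferentiated marker sum exceeded its decidual one, so the 2 clusters are compared here by number. The 30 genes summed to 7313 CPM (7145 to 7484) in cluster 1 and 4017 CPM (3839 to 4201) in cluster 17, which was below both undifferentiated clusters at 4340 and 4886 CPM. Of 24 genes tested 6 were higher in cluster 1 (25%), near the 21.2% of all 4318 genes, and 0 lower, against 6.88%. Creld2 was 3.18-fold higher (1.43 to 8.34) from 46 and 7 UMIs, Manf 2.90-fold (219 against 75.6 CPM), Calr 2.80-fold (553 against 197 CPM) and Dnajb11 2.64-fold (72.1 against 27.3 CPM). Creld2, Manf and Dnajb11 met the UMI minimum only with their UMIs in cluster 1. Hspa5 was 2.15-fold higher (1.88 to 2.46), at 1228 against 571 CPM, and Hsp90b1 2.05-fold (1.84 to 2.28), at 1787 against 874 CPM. Hspa5 thus met the rule here, and its ratio was 1.11 in the NK and 0.894 in the epithelial division; the difference between divisions was not tested. Ppp1r15a had the lowest ratio, 0.536 (51.8 against 96.6 CPM), and Xbp1, Atf4 and Ern1 were not called, at 1.23, 0.909 and 0.786.

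**Figure D4:**
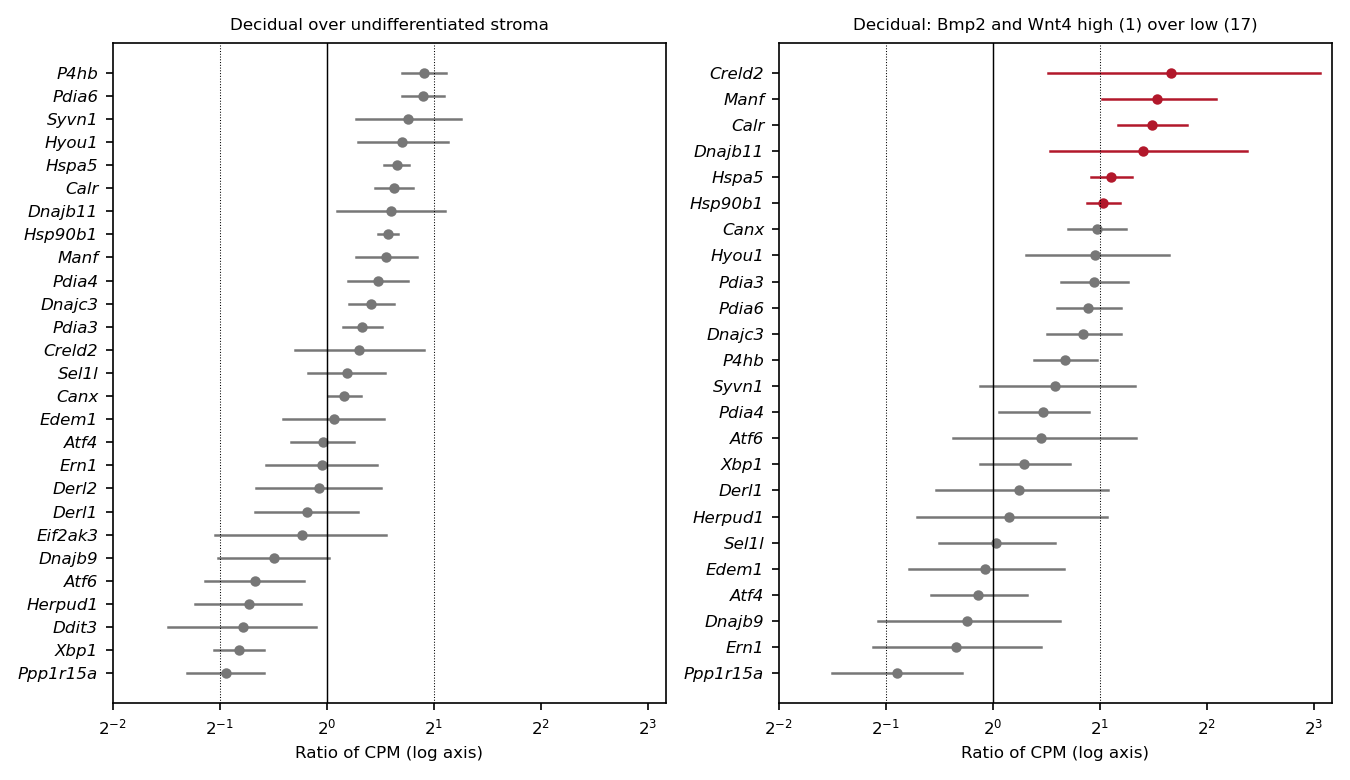
Ratios of CPM with exact 95% intervals on log axes, for decidual over undifferentiated stroma (left, 27 genes) and for decidual cluster 1 over cluster 17 (right, 24 genes); dotted lines mark 2-fold, red is called higher and grey not called. On the left every gene lies inside the 2-fold lines, and on the right Creld2, Manf, Calr, Dnajb11, Hspa5 and Hsp90b1 lie above 2-fold.

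Of the translocation and glycosylation genes 11 of 24 were higher in cluster 1 and 0 lower, led by Ssr4 (257 against 60.9 CPM) and Ost4 (268 against 71.4 CPM). Against 21.2% of all genes higher, other ER folding enzymes had 3 of 24 higher, led by the prolyl isomerases Fkbp14 (2.49-fold) and Ppib (2.36-fold), and Qsox1 was 2.29-fold lower. Of 9 Atf4 targets 4 were higher, led by Eif4ebp1 (6.34-fold) and Phgdh (2.90-fold). The cells of cluster 1 were deeper, with a median of 9510 against 5308 UMIs, and had a mitochondrial share of 9.83% against 13.4%. Leaving the 20 genes with the most UMIs out of the totals, a choice made after seeing the data, gave 4 genes higher and 1 lower, with Hspa5 at 1.74-fold and Hsp90b1 at 1.66-fold.

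Phagocytes divided by the complement genes C1qa, C1qb and C1qc into cluster 3 (85 cells) and clusters 4 and 5 (172 cells) gave no called gene among the 25 tested, against 6.82% of all 3727 genes higher and 9.2% lower. Hspa5 was at 3618 and 2676 CPM (1.35-fold, 1.27 to 1.44), Herpud1 at 470 and 328 CPM and Ppp1r15a at 569 and 368 CPM, while Xbp1 was at 212 and 372 CPM. The C1q-low side held monocyte and dendritic clusters, and cluster 4 also held neutrophil markers at 790 CPM, with 1 of 6 at 0. Within that side Ppp1r15a was at 523 CPM in cluster 4 and 129 CPM in cluster 5, and Ddit3 at 179 and 64.7 CPM. The 2 counts changed with the clustering and the filters, to up to 3 genes higher and 3 lower.

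The motifs and the calls were set side by side, a grouping made after seeing the data. Manf, called higher in the decidual and NK divisions, had no window and is in neither group. In the decidual division 5 of 10 tested genes with an ERSE or ERSE-II and 0 of 10 with neither were higher, against 21.2% of all genes. In the NK division it was 5 of 10 and 4 of 14, against 16.1% of all genes, with median log2 ratios of 1.07 and 0.17. There 1 of 10 and 4 of 14 were lower, against 12.9% of all genes. In the epithelial division it was 3 of 11 and 4 of 14, against 7.67%, with medians of 0.71 and 0.35. In the phagocyte division none of either group was called, against 6.82% of all genes higher and 9.2% lower, with medians of 0.14 and 0.16. Decidual over undifferentiated stroma also gave none, against 8.46% and 18.2%, with medians of 0.58 and -0.05. For NK cells over all other cells 1 of 11 and 4 of 14 were higher, against 11.6%, with medians of 0.05 and 0.53. For epithelium over all other cells it was 1 of 11 and 3 of 14, against 11.4%, with medians of 0.41 and 0.25. In the epithelial division the ERSE genes called were Derl3, Creld2 and Dnajc3, whose stretches are printed above, while Hspa5, Calr, Canx and Pdia6, which also hold one, were between 0.863 and 1.02 in ratio, and Hsp90b1 and Syvn1, with one as well, were at 1.64 and 1.71. Derl3 there, and Creld2 and Dnajb11 in the decidual division, met the UMI minimum only through the side where they were higher.

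Across the 20 clusters pairs of the genes ranged from alike to opposed. Over 378 pairs of 28 genes, the median Pearson r of log2(CPM + 5) was 0.23, with 88 pairs above 0.5 and 82 below 0. No such value was taken over pairs of all genes, so 0.23 cannot be called high or low. The shallow unnamed clusters, with 50533 and 47412 UMIs, are among the 20, and their counting error enters r. The highest pair was Hsp90b1 with Hyou1 (r 0.91), followed by Hsp90b1 with Pdia3 (0.85) and with Pdia4 (0.84) and Dnajb11 with Sdf2l1 (0.83), and the lowest was Eif2ak3 with Sel1l (-0.53). Xbp1 was most alike Dnajb9 (0.70) and Ppp1r15a (0.65), and Ddit3 most alike Edem1 (0.79) and Herpud1 (0.71). Against the sum of the other genes Hyou1 (0.86), Calr (0.80) and Hspa5 (0.79) had the highest r, and Sel1l (0.16), Ern1 (0.12) and Derl2 (-0.16) the lowest. The clusters share 1 library and differ in depth, so these values describe them and carry no test.

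Immediate early genes, which dissociation of tissue is known to induce, varied along with some of the genes. Their sum ran from 685 CPM in decidual cluster 1 to 14998 CPM in phagocyte cluster 4. With its log2, Ppp1r15a had r 0.86, Hspa5 0.70, Atf4 0.57, Ddit3 0.40 and the summed 30 genes 0.55 (n = 20 clusters), while the sum had r 0.22 with the log2 median depth and -0.02 with the mitochondrial share. Ppp1r15a was at 51.8 CPM in decidual cluster 1 and 1336 CPM in epithelial cluster 11, which had 12670 CPM of immediate early genes. For Dnajc3 r was -0.02, with 985 CPM in the gland cluster and 101 to 336 CPM in all others. The part of handling in the levels of Ppp1r15a was not tested.

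**Figure D5:**
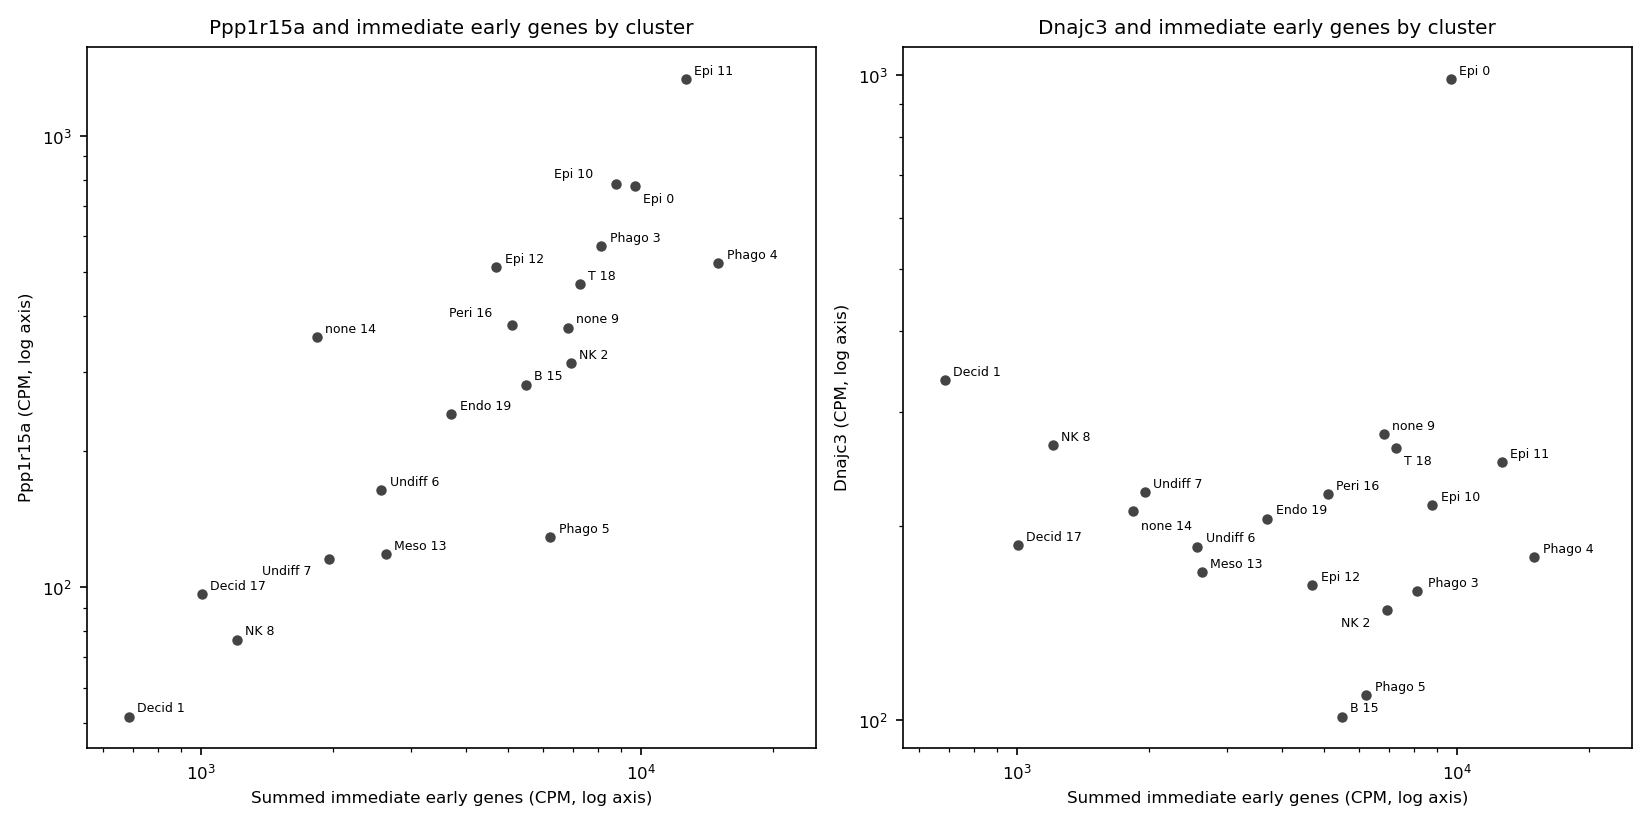
CPM of Ppp1r15a (left) and Dnajc3 (right) against the summed CPM of 12 immediate early genes in each of the 20 clusters, on log axes; labels give the abbreviated class and cluster number. Ppp1r15a runs from 51.8 CPM in decidual cluster 1 to 1336 CPM in epithelial cluster 11, and for Dnajc3 only epithelial cluster 0 stands apart, at 985 CPM.

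Of 8258 genes outside the lists with at least 200 UMIs, those whose pattern over the 20 clusters was most like the summed 30 genes were Nars (r 0.83), Sat1 (0.76), Eif5 (0.74), Specc1 (0.73), Eif1a (0.73), Ap1s3 (0.72), Acsl5 (0.72) and Plscr1 (0.72). Nars, the asparaginyl-tRNA synthetase, ran from 82.4 to 244 CPM over the clusters. Sat1, a polyamine acetyltransferase, ran from 58.8 to 1925 CPM.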

How the data were processed

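The authors deposited UMI counts per gene and barcode, not normalised, for the 1 library used. Per the file headers they came from Cell Ranger 4.0.0, and the submitters' processing notes name mm10. Cell calling is not described in the labels. Of 32287 features 40 shared a symbol with another and were summed with it. Of 2775 barcodes (16848794 UMIs, median 3225, none under 500), 1825 had at least 500 genes and at most 20% mitochondrial UMIs. Scrublet in scanpy 1.11.5 marked 13 (0.712%) as doublets at an expected rate of 5%, which were removed; others may have been missed. Counts were scaled to 10000, and 2000 variable genes, 30 components, 15 neighbours and Leiden resolution 1 were used, without the 30 genes and 8 pathway lists. Clusters were named from 172 markers in 23 sets, needing at least 3 markers in at least 10% of cells, and names may differ from the authors' own. Sums over cells were compared as CPM with exact Poisson and conditional binomial intervals, since cells are not replicates. The rule of ratios was tried on simulated Poisson sums for the epithelial and decidual divisions. The simulation held no spread between cells, so it cannot give the rate of false calls in these data. All 30 genes are named, and of each pathway list and comparison at most the 2 highest and 2 lowest called genes; of class comparisons and some lists, fewer are printed. The 8 most alike genes were taken by r over clusters of at least 20 cells. The members and lists were chosen with earlier results of these data known. Gene coordinates are GENCODE M21 on GRCm38. The software was Python 3.11.15 with igraph 0.11.9, scipy 1.17.1, matplotlib 3.10.9, anndata 0.12.19, numpy 2.4.6, scikit-learn 1.9.0 and pandas 2.3.3. Alternatives varied the filters, totals, clustering, minimum UMIs, fold and thinning.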

Additional observations from a re-analysis of the deposited data

How the results depend on the processing

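Recomputed ratios of the called genes of the divisions stayed within their counting interval 319 times, left it 45 times and reversed 0 times. The 319 include the alternatives that changed only the minimum UMIs or the fold. These leave every ratio as it was and could not move it. The ratio of Derl3 in epithelium had no UMI on 1 side after thinning. Recomputed counts stayed within 1.5 times the reported one 129 times and moved beyond it 34 times. No paired analysis was possible because 1 library was analysed. For decidual against undifferentiated stroma, where both counts were 0, 1 gene was higher and 1 lower at 10% mitochondrial UMIs and with per-cell means, 1 was higher without filters, 2 with totals free of mitochondrial, ribosomal and haemoglobin genes, and 7 higher and 5 lower at a fold of 1.5; without cluster 17, chosen after seeing the data, 2 were higher and 1 lower. For the decidual clusters, 10 were higher with per-cell means and 12 at a fold of 1.5, and 1 was lower at a fold of 1.5, at resolution 2 and without the 20 most counted genes. For the epithelial clusters, 3 were higher after thinning and 11 at a fold of 1.5, and 1 was lower at 10% mitochondrial UMIs, 2 at the altered totals and 2 at a fold of 1.5. For the NK clusters, 3 were higher without filters and 2 lower at resolution 2. For the phagocyte clusters, 1 was lower at 10% mitochondrial UMIs and at a minimum of 20 UMIs, 1 higher and 2 lower without filters, 3 higher and 3 lower with the 30 genes kept in clustering, 3 higher with doublets kept, and 1 higher and 3 lower at a fold of 1.5. Over all classes, 13 gene and class pairs were higher and 73 lower, 21 higher with per-cell means, and 28 higher and 117 lower at a fold of 1.5. The decidual division at 10% mitochondrial UMIs and the phagocyte division at resolution 0.5 gave no value. The cause was not tested. Depth limits the genes with few UMIs most, such as Trib3, Derl3 and the sensors.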
